A study of Rattus norvegicus with 6 samples.

Results

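The nuclear-encoded genes of oxidative phosphorylation were examined in transplanted rat corneas, in a comparison of resveratrol with saline. Genes were taken by symbol: every listed gene beginning with Ndufa, Ndufb, Ndufc, Ndufs, Ndufv, Uqcr, Cox4 to Cox8 or Atp5, together with Sdha, Sdhb, Sdhc, Sdhd, Uqcc1, Uqcc2 and Cycs. This gave 97 of the 17771 genes in the count table. They comprise 44 genes of complex I, 4 of complex II, 10 of complex III, cytochrome c, 17 of complex IV and 17 of complex V, and 4 further copies or pseudogenes. Complex I includes 8 assembly factors, whose symbols begin with Ndufaf, and complex III includes 2. Ndufa4, named for complex I, was placed with complex IV, where its protein is now assigned.

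Oxidative phosphorylation takes place at the inner mitochondrial membrane. Complexes I and II pass electrons to ubiquinone, complex III passes them to cytochrome c and complex IV to oxygen, and complex V, the ATP synthase, uses the resulting proton gradient to make ATP. In the cornea this ATP feeds, among other processes, the ion pumping of the endothelium that keeps the tissue transparent. Most subunits are encoded in the nucleus and imported, while a small core is encoded by mitochondrial DNA. The 13 mitochondrially encoded subunits were not analysed here.

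Both groups consisted of Wistar rats with a corneal allograft from SD (Sprague-Dawley) donors, with no genetic change named in the labels. Of the 6 bulk RNA-seq libraries of cornea, 3 came from recipients injected intraperitoneally each day with saline (control) and 3 from recipients injected with resveratrol, a plant polyphenol, and all were taken at day 7. The series title concerns prevention of graft rejection, and the comparison asks what differed between resveratrol and saline. Dose and age were not given in the labels, which also do not say whether each library came from a separate animal, so the p-values reflect spread between libraries alone, and that spread may be technical. In bulk tissue, fewer cells of a type and less RNA per cell cannot be told apart.

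Total gene counts were 35068936 to 37460756 per library. The tissue label was matched by its markers: 5 corneal epithelial genes summed to 82041 to 89886 CPM (counts scaled to library size with TMM factors) in control and 81077 to 93994 CPM in resveratrol, and 5 stromal genes to 4429 to 5143 and 3344 to 4968 CPM. The 3 corneal endothelial genes summed to 179 to 264 CPM in control and 162 to 166 CPM in resveratrol, without overlap, with 1 gene higher and 2 lower by mean. Markers of cells that can enter a graft had lower sums in resveratrol. The 5 blood vessel genes summed to 316 to 461 CPM in control against 194 to 262 CPM in resveratrol, the 5 macrophage genes to 210 to 268 and 157 to 189 CPM, and the 5 T cell genes to 5.49 to 14.3 and 3.55 to 4.13 CPM. By mean, 4 of the macrophage genes were lower in resveratrol and 1, Mrc1, was higher (37.7 ± 7.54 CPM in control and 40.7 ± 9.58 in resveratrol). None of the listed genes of these 3 lists was at 0 in all libraries. The part of these and of the endothelial genes in the results below was not tested.

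A mean count of at least 500 was reached by 79 of the 95 tested respiratory chain genes. Median levels differed between the complexes, whose ranges overlapped. Per kilobase of transcript (mean of 6 libraries, TMM-scaled CPM per kilobase), the subunits of complex I had a median of 54.3, those of complex II 46.9, those of complex III 75.3, those of complex IV 184 and those of complex V 177. Atp5f1b, the catalytic beta subunit of ATP synthase, was the highest member at 419 per kilobase, followed by Cox4i1, the ubiquitous form of complex IV subunit 4, at 274. The complex I subunits spanned 3.89 for Ndufs6 to 108 for Ndufb4, and the 4 complex II subunits 43.5 for Sdha to 68.6 for Sdhd. Ndufs6, which belongs to the matrix arm of complex I, stood well below the next subunit, Ndufa10, at 8.25. The symbol Ndufs6 is also listed in RefSeq as a synonym of a pseudogene, as are Uqcr10, Uqcrb and Cox6b1. Ndufa10 is listed as a synonym of Ndufa10l1, a protein-coding gene. Of the 97 genes, 51 have at least 1 copy or pseudogene named after them in RefSeq (rat assembly GRCr8), and the handling of reads that match several genes is not stated in the labels, so levels of such genes are uncertain.

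**Figure D1:**
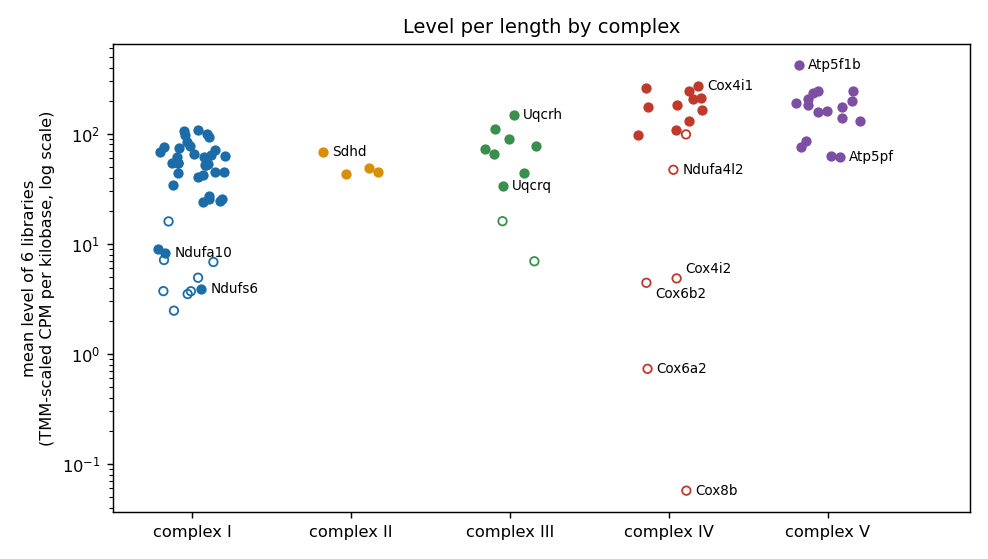
Mean level of the 6 libraries in TMM-scaled CPM per kilobase (log axis) for the genes of complexes I to V, 1 point per gene, with assembly factors and other isoforms as open circles. Common subunits of complexes IV and V lie highest (medians 184 and 177), and Cox4i2, Cox6b2, Cox6a2 and Cox8b lie far below the common complex IV subunits.

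Many of these genes are read from promoters with sites for a few shared factors, among them NRF1 (nuclear respiratory factor 1), the ETS-family factor GABP and YY1. Windows of 250 bases before to 50 bases after the RefSeq start were at hand for 84 of the 97 genes, and both strands were searched for the 10-letter NRF1 motif, for CGGAAGT (ETS) and for AAGATGGC (YY1). Matches of different motifs shared no base in any member's window. The NRF1 letters were in 17 member windows (20.2%, against 4.25% of all 33469 windows), the ETS letters in 17 (20.2%, against 6.32%) and the YY1 letters in 18 (21.4%, against 3.17%), and 42 of the 84 windows (against 12.4% of all windows) held at least 1 of them. NRF1 letters were in 9 of 40 complex I windows, 5 of 16 complex V windows and 0 of 14 complex IV windows. The comparison used every window at hand, not matched to the members in gene type, expression or base composition. A match is a description of the sequence, and its absence says only that these letters are not in this window.

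Examples are shown because they span the range from all 3 motifs to none, and Cox6b2 is 1 of the members with the lowest levels in resveratrol relative to control. All are from RefSeq on GRCr8, 5′ to 3′ in the direction of the gene, with motif matches in capitals. Uqcrc1, a core protein of complex III, is at chr8:118467973-118468272 (plus strand) and holds each motif. Atp5po, the stalk protein that links the catalytic head of ATP synthase to the membrane, is at chr11:44657434-44657733 (minus strand) and holds NRF1 and YY1 letters. Cox6b2, an isoform of complex IV subunit 6B known from testis, is at chr1:78122621-78122920 (plus strand) and holds none.
Uqcrc1: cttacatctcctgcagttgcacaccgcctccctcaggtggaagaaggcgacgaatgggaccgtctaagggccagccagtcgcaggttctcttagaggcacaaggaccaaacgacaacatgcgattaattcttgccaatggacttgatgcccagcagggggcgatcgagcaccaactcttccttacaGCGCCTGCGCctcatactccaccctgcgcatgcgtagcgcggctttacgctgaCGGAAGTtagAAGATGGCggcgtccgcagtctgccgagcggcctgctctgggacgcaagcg
Atp5po: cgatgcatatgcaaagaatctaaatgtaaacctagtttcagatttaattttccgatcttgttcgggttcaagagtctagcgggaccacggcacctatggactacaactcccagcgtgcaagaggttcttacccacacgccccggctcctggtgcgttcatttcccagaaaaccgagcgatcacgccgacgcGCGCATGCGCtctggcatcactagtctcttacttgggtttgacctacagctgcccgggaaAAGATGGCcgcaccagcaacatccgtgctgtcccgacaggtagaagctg
Cox6b2: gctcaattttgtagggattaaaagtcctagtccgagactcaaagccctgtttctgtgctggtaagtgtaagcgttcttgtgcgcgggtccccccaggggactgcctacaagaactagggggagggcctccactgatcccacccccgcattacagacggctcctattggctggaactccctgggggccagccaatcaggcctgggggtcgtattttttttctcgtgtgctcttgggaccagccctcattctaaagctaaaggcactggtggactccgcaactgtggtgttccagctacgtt

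The median log2 fold change, resveratrol minus control, was -0.06 over 42 tested members with a motif in the window and -0.04 over 41 without.

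Between resveratrol and control the respiratory chain as a whole differed little. Counts allowed a test of 95 of the 97 genes, and Cox8b and Atp5hl1, with 4 and 3 counts over all libraries, were left out. In edgeR's quasi-likelihood test 0 of 95 members had an adjusted p under 0.05 (against 0.0% of the 14213 genes tested), and the smallest adjusted p among members was 0.1306, for Cox4i2. At an unadjusted p under 0.05 edgeR gave 0 members higher, against 7.84% of all genes, and 4 lower (4.21%, against 11.7%). DESeq2, run as an alternative, called 0 members higher (against 2.23% of 14666 genes) and 2 lower (2.11%, against 4.64%), Cox4i2 and Cox6b2. All 4 genes at an unadjusted p under 0.05 belong to complex IV.

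The differences were also small. The edgeR log2 fold change lay under 0.25 in size for 88 of 95 members (92.6%), against 62.9% of all genes tested, and among genes with a mean count of at least 500 for 79 of 79 members, against 75.6% of 8364 genes. The 95% interval of the difference (limma on log2 CPM) lay within 1.5-fold either way for 83 members and within 2-fold for 88. On the lower side it left out 0 for Cox4i1, Cox4i2, Cox6b2, Cox6c and Cox7a2, all of complex IV. Variation between replicates was also low. At a mean count of at least 500 the median coefficient of variation of the members was 3.71% in control and 5.82% in resveratrol, against 8.05% and 8.23% over all such genes.

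**Figure D2:**
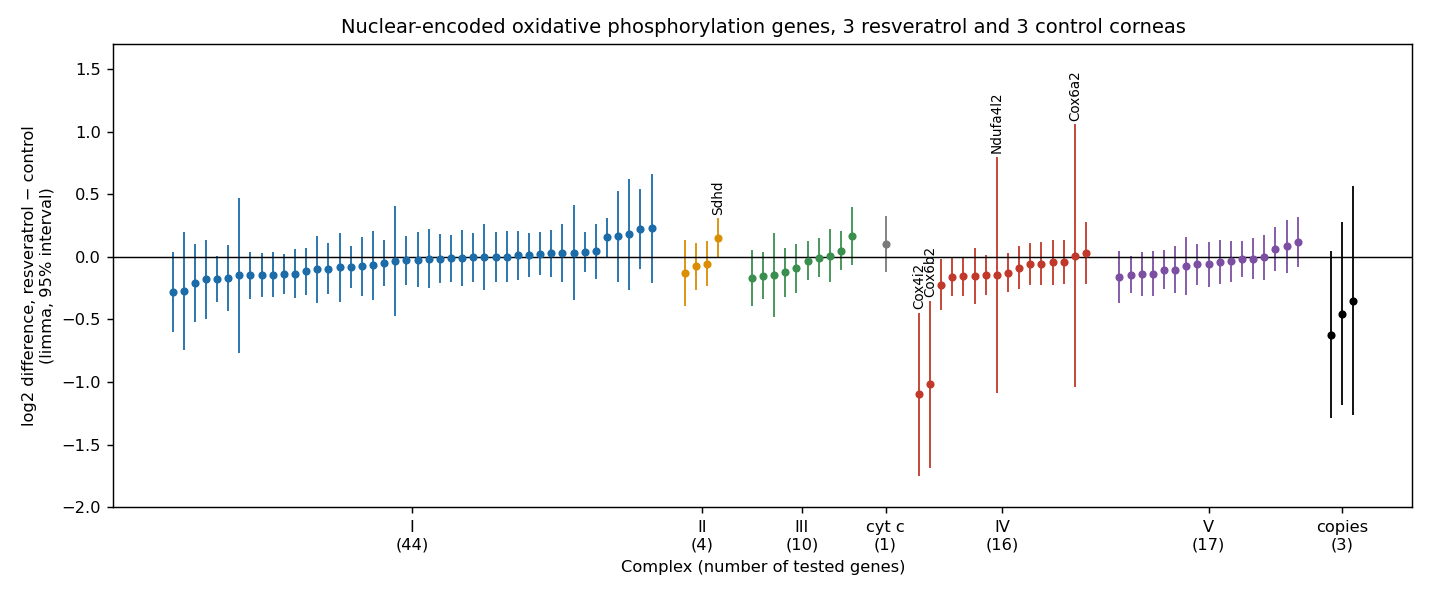
Log2 difference of each tested gene, resveratrol minus control (vertical axis, limma on log2 CPM, 3 libraries per group), with its 95% interval, ordered by size within each complex. Nearly all intervals cross 0, and Cox4i2 and Cox6b2 of complex IV lie lowest, near -1.

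The small differences leaned one way: 70 members had a lower mean in resveratrol and 25 a higher one, with a median log2 fold change of -0.06, against -0.01 over all genes tested. The CPM ranges of the groups did not overlap for 21 members that were lower (22.1%, against 14.3% of all genes) and 4 that were higher (4.21%, against 12.2%). With library size as the only scaling these counts were 19 lower (against 1853 of the 14213 genes) and 5 higher (against 1906). Summed over the members, control 1 to 3 held 6845, 6878 and 6886 CPM, and resveratrol 1 to 3 held 6535, 6733 and 6750 CPM. All resveratrol libraries were below all control libraries on this scale. As a share of all counts, without TMM factors, the control libraries were at 0.679%, 0.684% and 0.686% and the resveratrol libraries at 0.642%, 0.680% and 0.693%, so the groups overlapped, with resveratrol 1 lowest and resveratrol 3 highest of the 6. Without resveratrol 1 the median log2 fold change of the members was -0.02.

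Gene length went with this lean. Most respiratory chain subunits are small proteins with short transcripts: lengths, recovered from the ratio of count to FPKM, had a median of 792 bases for the tested members (289 to 5529), against 3102 for all genes tested, and 63.2% of members were under 1000 bases, against 7.13%. Short genes outside the set had negative medians too. The median log2 fold change of non-members was -0.11 under 500 bases (164 genes), -0.10 from 500 to under 1000 bases (790), -0.04 from 1000 to under 2000 (3006), -0.01 from 2000 to under 4000 (4955) and 0.04 at 4000 bases and over (5203). The members' medians in the same classes were -0.13 (22 genes), -0.08 (38), -0.02 (27), 0.04 (7) and -0.01 for the single gene of the longest class, Ndufa10. Spearman's rho between log2 fold change and length was 0.37 across the 95 members and 0.128 across all 14213 genes, a description across genes that share the same 6 libraries.

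**Figure D3:**
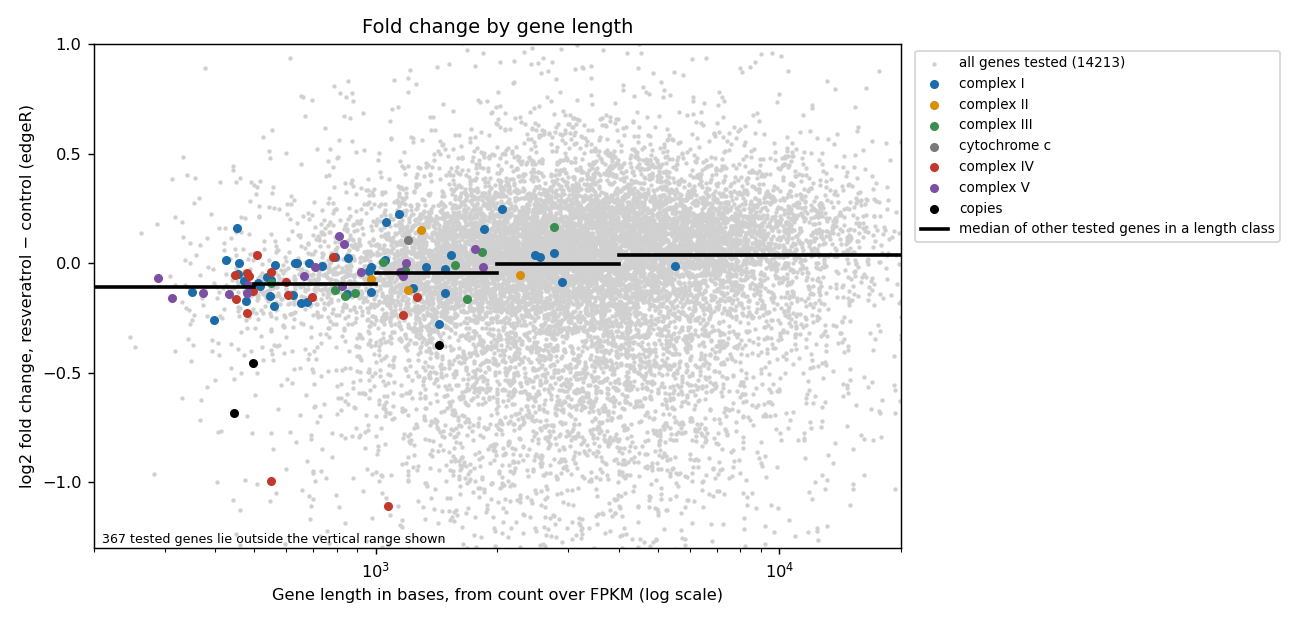
Log2 fold change (edgeR, resveratrol minus control) against gene length in bases (log axis) for the 14213 genes tested (grey) and the members, coloured by complex, with black bars at the median of non-members in each length class. Tested genes beyond the ranges of the axes are not shown. The bars climb from -0.11 under 500 bases to 0.04 at 4000 bases and over. Most members lie near them, with Cox4i2, Cox6b2 and the tested copies furthest below. Others further off include Ndufaf4 (0.25) and Ndufaf5 (0.22) above, and Ndufaf3 (-0.28) and Ndufa4l2 (-0.24) below.

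When the trend of log2 fold change with length was removed in each library before the test, the members' median moved to 0.02 and the number with a lower mean from 70 to 39 of 95. The direction of the lean therefore depended on this step. For complex IV the median went from -0.14 to -0.04, and for its 11 common subunits from -0.08 to 0.01. For complex V it went from -0.06 to 0.03 and for complex I from -0.02 to 0.04.

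Complex I, the NADH dehydrogenase, showed no shared direction across its roles. Of the 7 tested core subunits, which carry the flavin and iron-sulfur clusters, 5 had a higher mean in resveratrol (median log2 fold change 0.03). Of the 29 accessory subunits 24 had a lower mean (median -0.08, at a median length of 624 bases). With library size as the only scaling 19 did, and with the length trend removed 12 did, where the median turned to 0.02. Of the 8 assembly factors 5 had a higher one (median 0.10). None of the 44 reached an unadjusted p of 0.05 in edgeR.

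Ndufv1, the flavin-bearing core subunit, was at 77.2, 84.4 and 79.4 CPM in control 1 to 3 against 71.9, 72.9 and 74.3 CPM in resveratrol 1 to 3. Every resveratrol library was below every control library, by a log2 fold change of -0.14 ± 0.069 (moderated standard error; edgeR's quasi-likelihood test, adjusted p = 0.3218).

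Among accessory subunits, Ndufs5 was at 39.6, 38.5 and 39.0 CPM in control against 32.4, 36.0 and 35.2 CPM in resveratrol (log2 fold change -0.18 ± 0.079). Ndufc1, part of the membrane arm, was at 47.96, 50.4 and 50.8 CPM and at 45.3, 46.6 and 42.7 CPM (-0.15 ± 0.075). Both were lower in every resveratrol library than in any control library, and both are short genes, of 675 and 624 bases. The accessory subunits with the highest counts overlapped between groups: Ndufv3 was at 81.9 ± 3.7 CPM in control against 84.0 ± 9.91 CPM in resveratrol, and Ndufb9 at 67.8 ± 1.34 and 67.7 ± 5.86 CPM (SD, n = 3).

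The assembly factors were measured from fewer counts. Ndufaf3 was at 11.4, 11.1 and 9.84 CPM in control against 7.78, 9.50 and 9.40 CPM in resveratrol, without overlap (log2 fold change -0.28 ± 0.14). Ndufaf5, which modifies the core subunit Ndufs7, was at 7.79, 6.69 and 8.04 CPM and at 8.76, 8.19 and 9.32 CPM, higher in each resveratrol library (0.22 ± 0.14). Ndufaf4 was at 9.24 ± 0.904 and 10.97 ± 2.45 CPM, and Ndufaf1 at 11.1 ± 0.614 and 10.4 ± 0.686 CPM (SD, n = 3), both with overlap.

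Complex II, succinate dehydrogenase, belongs both to the respiratory chain and to the tricarboxylic acid cycle, and its 4 subunits did not lie on the same side. Sdhd, a membrane anchor, was at 85.2, 84.1 and 83.2 CPM in control against 98.1, 92.6 and 89.8 CPM in resveratrol (log2 fold change 0.15 ± 0.068, edgeR adjusted p = 0.2785), with every resveratrol library higher. Sdhc, the other anchor, was at 51.5, 57.0 and 59.0 CPM and at 44.5, 51.4 and 57.8 CPM (-0.12 ± 0.11). The groups overlapped for Sdhc, for the flavoprotein Sdha (101 ± 6.41 and 97.1 ± 3.61 CPM) and for the iron-sulfur subunit Sdhb (49.1 ± 1.81 and 46.7 ± 2.96 CPM; SD, n = 3).

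Complex III had a median log2 fold change of -0.06 over 10 genes, 7 of them with a lower mean. The core proteins Uqcrc1 (172 ± 5.85 CPM in control, 171 ± 4.77 in resveratrol) and Uqcrc2 (140 ± 1.72 and 145 ± 7.14 CPM) were level within their spread. The small ubiquinone-binding subunit Uqcrq was at 58.9, 61.6 and 59.4 CPM and at 46.9, 55.5 and 58.4 CPM, without overlap, with resveratrol 1 furthest below (log2 fold change -0.16 ± 0.097). Uqcr11, another small subunit, was at 64.2 ± 3.7 and 57.8 ± 2.9 CPM (SD, n = 3). Uqcc1, an assembly factor for cytochrome b and named here after its values were seen, was higher in every resveratrol library (18.9, 17.1 and 18.3 CPM in control against 21.7, 19.9 and 19.3 CPM). Cycs, the mobile carrier cytochrome c, was at 57.5, 55.0 and 60.7 CPM in control against 55.5, 62.2 and 68.8 CPM in resveratrol, with overlap (0.11 ± 0.097), and Cyc1, cytochrome c1 of complex III, which the symbol rule leaves out, at 83.1 ± 3.53 and 91.0 ± 9.25 CPM.

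Complex IV, cytochrome c oxidase, was the complex with the lowest median (log2 fold change -0.14 over 16 tested genes, 14 with a lower mean). Of its 11 common subunits 10 had a lower mean in resveratrol, by 0.23 or less on the log2 scale, and the groups did not overlap for 5 of them, against 14.3% of all genes on that side. Their summed level was 1173 to 1181 CPM in control against 1051 to 1124 CPM in resveratrol. Only Ndufa4 among them had a higher mean, at 76.0 ± 7.39 and 77.5 ± 7.32 CPM, with overlap. Whether complex IV differed from the other complexes was not tested.

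Cox7a2, the common form of subunit 7A, was at 54.1, 61.1 and 54.0 CPM in control against 45.7, 47.6 and 51.4 CPM in resveratrol (log2 fold change -0.23 ± 0.087, edgeR unadjusted p = 0.0321, adjusted p = 0.2191). Cox6c was at 89.9, 87.4 and 84.5 CPM and at 78.3, 79.0 and 76.7 CPM (-0.16 ± 0.066, edgeR unadjusted p = 0.0422, adjusted p = 0.2421). Cox4i1 was at 200.1, 208.9 and 194.2 CPM and at 176.8, 185.1 and 179.2 CPM (-0.16 ± 0.066). In all 3 genes every resveratrol library was below every control library, and the step was a small fraction of the level. With the length trend removed, or with library size as the only scaling, 0 of the 11 common subunits had an unadjusted p under 0.05 in edgeR on the lower side, against 2 in the fit above. Cox6b1 (134 ± 5.5 and 122 ± 4.61 CPM) and Cox8a (128 ± 4.72 and 117 ± 3.66 CPM; SD, n = 3) also did not overlap. Cox6a1 did, at 146 ± 3.51 and 142 ± 10.1 CPM.

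The 2 members that DESeq2 called are isoforms present at low level beside an abundant partner. Cox4i2, a form of subunit 4 known from lung and from contractile cells around vessels and linked to oxygen sensing, was at 8.30, 7.97 and 5.01 CPM in control against 2.87, 4.40 and 2.61 CPM in resveratrol. All resveratrol libraries lay below all control libraries, with control 3 nearest to them. The log2 fold change was -1.11 ± 0.28 (edgeR's quasi-likelihood test, unadjusted p = 0.00511, adjusted p = 0.1306; DESeq2, adjusted p = 0.00953). Between the libraries whose descriptions end in Sep it was -1.53 (1 against 1) and between those ending in Oct -0.89 (2 against 2).

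Cox6b2 was at 3.53, 3.29 and 2.87 CPM in control against 1.04, 1.88 and 1.95 CPM in resveratrol, again without overlap and with resveratrol 1 lowest. Its log2 fold change was -0.99 ± 0.29 (edgeR's quasi-likelihood test, unadjusted p = 0.0102, adjusted p = 0.1558; DESeq2, adjusted p = 0.0392), with -1.77 between the Sep libraries and -0.69 between the Oct libraries. With the replicate number as a block DESeq2 called Cox4i2 alone. Without control 1, control 2 or resveratrol 1 it called neither gene, without control 3 or resveratrol 2 Cox4i2 alone, and without resveratrol 3 Cox6b2 alone.

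Both genes were a small part of their pair. Per length, Cox4i2 made up 2.63%, 2.42% and 1.65% of Cox4i1 plus Cox4i2 in control 1 to 3 and 1.04%, 1.52% and 0.937% in resveratrol 1 to 3. Cox6b2 made up 2.93%, 2.67% and 2.21% of Cox6b1 plus Cox6b2 in control and 0.973%, 1.62% and 1.74% in resveratrol. Both shares were small in every library and lower in each resveratrol library, with 2.23% ± 0.515 against 1.17% ± 0.312 for Cox4i2 and 2.60% ± 0.363 against 1.45% ± 0.414 for Cox6b2 (SD, n = 3). An exact permutation test of 3 against 3 libraries cannot give a two-sided p below 0.1, so none was made.

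The 5 blood vessel marker genes were also lower in resveratrol, each without overlap between the groups and each at an unadjusted p under 0.05 in edgeR. Eng, an endothelial receptor, was at 152, 124 and 111 CPM in control against 75.2, 70.6 and 86.8 CPM in resveratrol. Within control, Eng, Cdh5, Kdr and Tek fell from control 1 to control 3 in the same order as Cox4i2, and Pecam1 did not. Within resveratrol, Cox4i2 was highest in resveratrol 2, as was Tek (11.2, 17.6 and 17.0 CPM). Eng, Pecam1, Cdh5 and Kdr were highest in resveratrol 3, where Cox4i2 was lowest. The 9 listed genes of the skeletal muscle list summed to 4.43 to 4.76 CPM in control against 2.45 to 3.11 CPM in resveratrol. Only 2 of them had counts enough for a test. Atp2a1 was at 1.52 ± 0.402 and 0.833 ± 0.210 CPM, without overlap, and Tnnt3 at 2.08 ± 0.578 and 1.37 ± 0.0947 CPM, with overlap (SD, n = 3). Whether either cell type had a part in the levels of Cox4i2 or Cox6b2 was not tested.

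**Figure D4:**
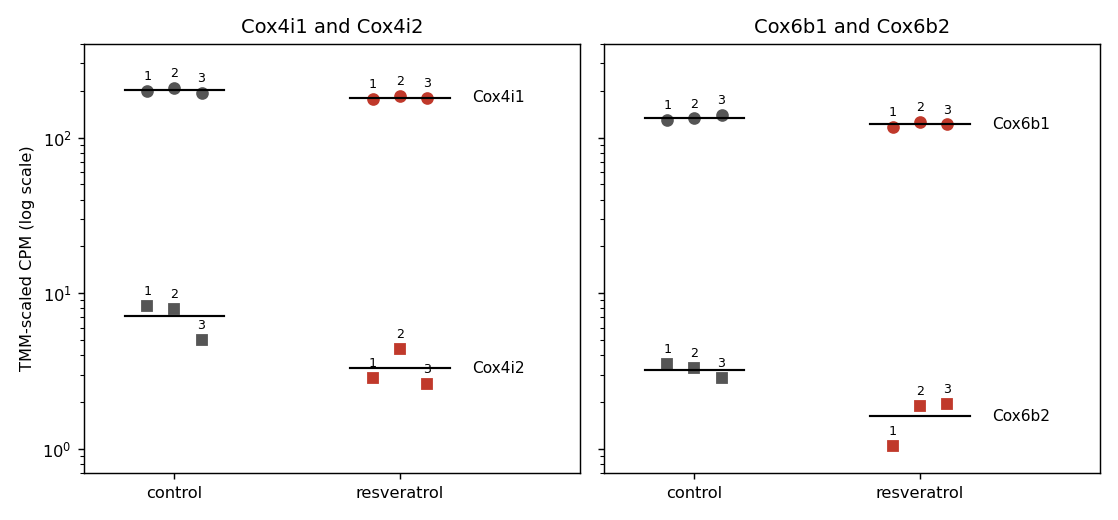
TMM-scaled CPM (log axis) of Cox4i1 with Cox4i2 and of Cox6b1 with Cox6b2 in the 3 control and 3 resveratrol libraries, numbered by replicate, with bars at group means. The rarer isoforms lie lower in every resveratrol library, Cox4i2 at 2.61 to 4.40 against 5.01 to 8.30 CPM, and the common partners differ far less.

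The remaining isoforms gave no such difference. The muscle form Cox6a2 was at 0.366 ± 0.116 CPM in control against 0.377 ± 0.146 CPM in resveratrol (SD, n = 3), near the limit of detection, with an interval of -1.04 to 1.06 on the log2 scale. Ndufa4l2, a hypoxia-responsive relative of Ndufa4, was at 31.8, 96.0 and 50.9 CPM in control against 67.2, 34.3 and 50.04 CPM in resveratrol. Its spread was wide within each group and the groups overlapped (log2 fold change -0.24 ± 0.40). Cox7a2l, a supercomplex assembly factor, was at 132 ± 13.8 and 118 ± 7.98 CPM, also with overlap. The 3 tested copies had a lower mean in resveratrol. Cox7a2l2 was at 1.38 ± 0.346 and 0.859 ± 0.0372 CPM, without overlap (log2 fold change -0.68 ± 0.29, edgeR unadjusted p = 0.0575, adjusted p = 0.2686). Ndufa10l1 (7.68 ± 3.14 and 5.92 ± 2.39 CPM) and Ndufa13-ps1 (0.884 ± 0.0873 and 0.642 ± 0.167 CPM) overlapped between groups. Reads of such copies and of the genes they resemble may not be told apart.

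Complex V, the ATP synthase, had a median log2 fold change of -0.06 over 17 genes, 14 with a lower mean. In the catalytic head, Atp5f1b was at 752, 705 and 708 CPM in control against 748, 739 and 774 CPM in resveratrol, and its partner Atp5f1a at 453 ± 16.1 and 448 ± 11.2 CPM (SD, n = 3). Both overlapped between groups, with 95% intervals of -0.11 to 0.24 and -0.18 to 0.15 on the log2 scale. The 4 small subunits of the membrane part all had a lower mean (median -0.14, median length 372.5 bases), and 3 did not overlap between groups, against 14.3% of all genes on that side. With the length trend removed the median was -0.03, with 3 of the 4 means lower. Of the 3 without overlap, Atp5mf was at 79.1, 81.6 and 79.4 CPM and at 71.6, 72.9 and 73.1 CPM (-0.14 ± 0.064), and Atp5mk at 20.7 ± 0.490 and 18.5 ± 0.728 CPM. The inhibitor Atp5if1, which blocks reverse ATP hydrolysis, had a log2 fold change of -0.10.

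The c ring, whose rotation drives the synthase, is built from an identical mature protein made by 3 genes. Atp5mc2 was at 197, 202 and 195 CPM in control against 180, 193 and 181 CPM in resveratrol, lower without overlap (log2 fold change -0.10 ± 0.066). Atp5mc3 was at 126, 122 and 123 CPM and at 121, 135 and 147 CPM (0.12 ± 0.085), and Atp5mc1 at 61.4 ± 2.28 and 65.4 ± 6.21 CPM (SD, n = 3), both with overlap. Per length, Atp5mc2 gave 51.5% ± 0.962 of the 3 genes in control and 47.9% ± 2.17 in resveratrol, and Atp5mc3 32.7% ± 0.450 and 35.4% ± 1.89. These shares did not overlap between the groups. The 3 genes are of nearly equal length, 809 to 834 bases.

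Other mitochondrial genes gave a setting for these values. The 5 tested subunit genes that the symbol rule leaves out, Cyc1 among them, had 2 higher and 3 lower means (median log2 fold change -0.14). Their median was -0.09 with the length trend removed. Of 36 tested assembly factors outside the symbol rule, 18 had a higher and 18 a lower mean (median log2 fold change 0.01, 1 higher and 0 lower at an unadjusted p under 0.05 in edgeR, against 7.84% and 11.7% of all genes). A list of 16 genes of the tricarboxylic acid cycle and of pyruvate dehydrogenase held 13 with a higher mean (median 0.09, 1 higher and 0 lower). Of 74 mitochondrial ribosomal proteins 40 had a higher mean (median 0.03, 4 higher and 2 lower). With the length trend removed, 15 of the 16 and 58 of the 74 did (medians 0.13 and 0.09). Of 87 cytosolic ribosomal proteins, which are also short, 79 had a lower mean (median -0.10, 1 higher and 3 lower), and with the length trend removed 50 did (median -0.01).

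Among 20 tested regulators of mitochondrial biogenesis 15 had a higher mean in resveratrol (median log2 fold change 0.16, 3 higher and 1 lower at an unadjusted p under 0.05 in edgeR, against 7.84% and 11.7% of all genes). Ppargc1a, the coactivator best known for inducing respiratory genes, was barely detected, at 0.277 ± 0.0809 CPM in control against 0.259 ± 0.0621 CPM in resveratrol (SD, n = 3). Its relative Ppargc1b, named after its values were seen, was at 2.70, 3.75 and 2.76 CPM and at 6.58, 5.07 and 5.48 CPM, higher in every resveratrol library (0.89 ± 0.20; edgeR adjusted p = 0.1238, DESeq2 adjusted p = 0.00517). Gabpa, the DNA-binding part of GABP, was at 42.1 ± 1.03 and 51.2 ± 4.09 CPM without overlap (0.28 ± 0.085). Nrf1 (0.16 ± 0.093), Tfam, the mitochondrial transcription factor (0.11 ± 0.089), the deacetylase Sirt1 (0.17 ± 0.13) and the receptor Esrra (-0.03 ± 0.10) had smaller log2 fold changes, none of them at an unadjusted p under 0.05. At the same threshold 0 of the 95 respiratory chain genes were higher in edgeR.

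By library, the median deviation of log2 CPM from the mean of the 6 libraries was 0.02, 0.03 and 0.05 over the members in control 1 to 3 and -0.09, -0.001 and -0.007 in resveratrol 1 to 3. Resveratrol 1 thus lay furthest down, and the other resveratrol libraries were close to control 1. The genes of mitochondrial carriers, import and shape gave the opposite order of groups.

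**Figure D5:**
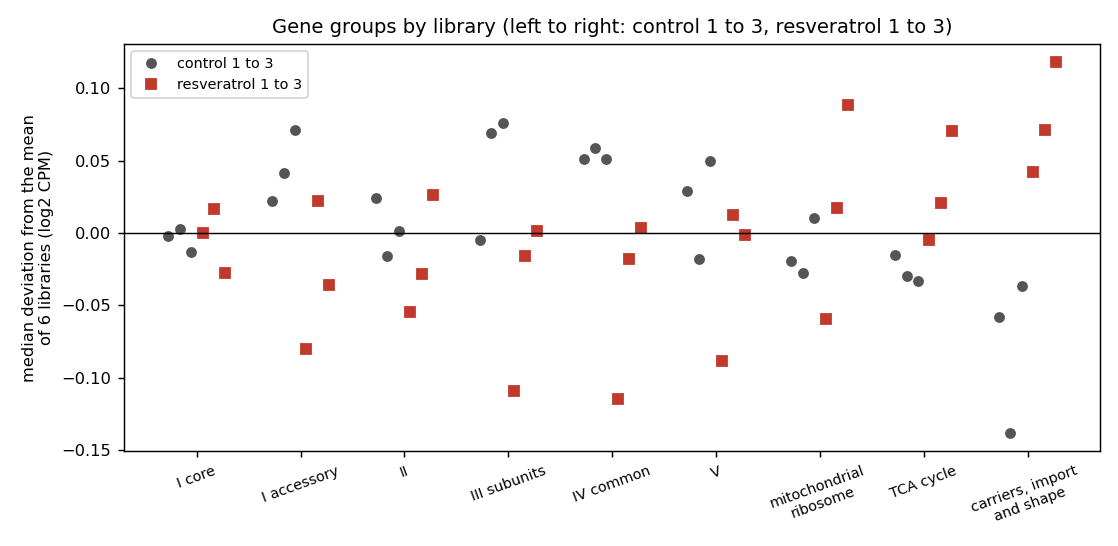
Median deviation of log2 CPM from the mean of the 6 libraries, for groups of respiratory chain genes and 3 other mitochondrial lists, 1 point per library. Resveratrol 1 lies lowest for complex I accessory subunits, complex II, complex III subunits, complex IV common subunits (-0.11) and complex V, whereas for carriers, import and shape genes all resveratrol libraries lie above all control libraries.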

How the data were processed

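The 6 libraries form 2 groups of 3 by the treatment in the labels. The authors deposited 17771 genes as raw counts and again as FPKM, per the file headers. The submitters' processing notes name DESeq2, R 3.2.0 and the genome mRatBN7.2 without saying what each did. Aligner, counter and strand setting: not given in the sources used here. Gene lengths came from the ratio of count to FPKM. The default filterByExpr filter kept 14213 genes, whose counts, after TMM scaling, were tested in edgeR 4.0.16 (quasi-likelihood, no covariate, R 4.3.3) with Benjamini-Hochberg adjustment over all genes tested. Standard errors and 95% intervals come from limma 3.58.1 on log2 CPM (prior count 2). DESeq2 1.42.0 was an alternative. The fits were tested on simulated counts.

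The members and lists were chosen with earlier results of these data known. Named members are, per complex and role, the 2 with the highest CPM and the 2 with the smallest p, the complex II subunits, the members without overlap among the 10 smallest p, and isoform pairs. Members and other genes beyond these and a short set of regulators were named after their values were seen. A gene that the rule names is not reported here. Same-numbered libraries did not deviate together, so numbers were not used as pairs. The description of replicate 1 in each group ends in Sep and every other one in Oct; what the endings stand for is not stated.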

Additional observations from a re-analysis of the deposited data

How the results depend on the processing

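edgeR's quasi-likelihood test called 0 members under every scaling, filter, block and left-out library. The count of genes called moved with the tool: DESeq2 gave 1007 genes and 2 members, edgeR's likelihood ratio test, added after seeing the data, 829 genes and 2 members (Cox4i2 and Cox6b2), and DESeq2 with the replicate block, also added, 662 genes and 1 member. DESeq2 without each library, added too, gave 623, 390 and 1027 genes without control 1 to 3, and 530, 642 and 817 without resveratrol 1 to 3, with 0 to 1 members. Leaving out a library gave edgeR 0 to 21 genes (21 without control 3, 1 without resveratrol 2).

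Members higher at an unadjusted p under 0.05 numbered 0 with all libraries, 2 with DESeq2 size factors, library size alone, DESeq2, log2(FPKM + 1), log2(FPKM + 0.1) or the Sep or Oct ending as covariate, 1 in the Oct libraries alone, 3 with the length trend removed, 2 with that and the replicate block, and 0 to 2 without a library (2 without resveratrol 1). Members lower numbered 4, and 7 with upper-quartile factors or a stricter filter, 2 with library size alone, DESeq2 or the length trend removed, with or without the replicate block, and 2 to 4 without a library (2 without control 2, resveratrol 1 or resveratrol 2). The replicate block alone gave 3 lower and 0 higher. These counts are of 95 members (92 with the stricter filter). Over all genes the share in these settings was 4.41% to 9.29% higher and 8.22% to 13.1% lower. On the lower side it was 13.1% with upper-quartile factors and 12.4% with the stricter filter. With the length trend removed it was 8.2% higher and 11.1% lower. The members' median log2 fold change of -0.06 became 0.020 with the length trend removed, 0.023 with the replicate block besides, and -0.08 to -0.02 without a library. It was -0.04 in the Oct libraries alone. The cause of these changes was not tested, except that the length step removes a trend by construction.

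Of 38 tested named members, 28 kept the sign of their fold change in every setting run. Part of these were named for a small p or for groups without overlap. The count therefore does not stand for all members. Counting error is relatively larger for members with few counts, among them Cox4i2, Cox6b2, Cox6a2 and Ndufs6.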

Other observations

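In the list of mitochondrial carriers, import and shape, the import and shape genes lay the other way from the small respiratory subunits. The Slc25a and Vdac genes of that list were mixed. Of the 23 tested genes of the whole list, 20 had a higher mean in resveratrol (median log2 fold change 0.16). At an unadjusted p under 0.05 in edgeR 9 were higher and 0 lower, against 7.84% and 11.7% of all genes. With the length trend removed the median was 0.20, with 13 higher and 0 lower at that threshold, and in the Oct libraries alone it was 0.18. None passed an adjusted p of 0.05 in edgeR. The genes named below were chosen after their values were seen, apart from Slc25a3 and Slc25a5.

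Hspa9, the mitochondrial chaperone that pulls imported proteins into the matrix, was at 154, 137 and 145 CPM in control against 180, 182 and 198 CPM in resveratrol, higher in every resveratrol library (0.36 ± 0.078; edgeR adjusted p = 0.1214, DESeq2 adjusted p = 0.00493). Tomm40, the import pore of the outer membrane (46.0 ± 4.38 and 57.7 ± 5.65 CPM), and Tomm70, its receptor (36.2 ± 2.1 and 43.8 ± 3.1 CPM), were also higher without overlap, as was the fission protein Dnm1l (64.0 ± 3.09 and 75.3 ± 2.88 CPM; SD, n = 3). The abundant phosphate carrier Slc25a3 was at 339 ± 5.7 and 345 ± 9.9 CPM, with overlap, and the adenine nucleotide carrier Slc25a5 at 282.5 ± 15.5 and 306.7 ± 7.39 CPM, without. The 3 genes of the list with a lower mean were Slc25a4, Vdac2 and Vdac3. Slc25a4 was lower without overlap (log2 fold change -0.08 ± 0.067), and Vdac2 (-0.02) and Vdac3 (-0.06) overlapped. Polg, the catalytic subunit of the mitochondrial DNA polymerase, was lower, at 126, 117 and 146 CPM in control against 100.2, 102 and 98.7 CPM in resveratrol (-0.37 ± 0.093; DESeq2 adjusted p = 0.0402).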
